A study of Mus musculus with 3 samples.

Results

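The genes described here are 46 mouse genes whose products license, start and carry out DNA replication, out of 52636 genes counted in single embryonic stem (ES) cells before and after loss of the cohesin subunit RAD21. They were taken by symbol, from a list made with earlier results of these data known, and each of the 46 symbols had a row in the counts of all 3 replicates. The cells were JM8.N4 ES cells of strain C57BL/6N, edited so that both copies of RAD21 carry GFP and a mini auxin-inducible degron, a tag by which the plant hormone auxin (indole-3-acetic acid) sends the protein for destruction. Control cells carried the same edits and were left untreated, and auxin cells were given 500 μM auxin for 6 h. All cells grew on gelatin without feeders in serum with leukaemia inhibitory factor and the inhibitors PD0325901 and CHIR99021, a mixture (2i with LIF) that holds ES cells in the naive state. Nothing in the sources used here says that more than 1 edited clone was used, and an untagged line given auxin was not analysed here, so that loss of RAD21 and any other action of auxin cannot be told apart.

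DNA replication is prepared in G1, when the origin recognition complex (here Orc1 and Orc6), Cdc6 and Cdt1 load the ring of Mcm2 to Mcm7 onto origins. In S phase, Cdc45 and the GINS proteins turn that ring into an active helicase, polymerase alpha and primase lay down primers, and polymerases delta and epsilon extend them behind the sliding clamp Pcna. Many of these genes are transcribed in a wave at the passage from G1 to S under the E2F factors, while genes of mitosis such as Ccnb1 and Cdc20 peak later, in G2 and M. ES cells are known for a short G1 and a large share of cells in S phase.

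Because E2F control is the known common feature of such genes, the letters that E2F factors bind were looked for in their promoters. RefSeq windows (build GRCm38.p6, from 250 bases before to 50 bases after a gene start) were matched by symbol for 38 of the 46 genes. The E2F-type words TTTCCCGC, TTTCGCGC, TTTGCCGC and TTTGGCGC were searched on both strands, and overlapping matches were each counted. At least 1 of these words stood in a window of 16 of the 38 genes (42.1%), in 17 of 48 other replication genes (35.4%), in 1 of 40 mitosis genes (2.50%) and in 704 of all 27025 genes with a window (2.60%). The stretches below are those of the 7 members whose match nearest the RefSeq start begins before it, and the capitals mark the E2F-type words. Further matches were not used for this choice. Rfc3 is left out, as its nearest match begins at the start, though it holds another that begins before it.
Mcm5: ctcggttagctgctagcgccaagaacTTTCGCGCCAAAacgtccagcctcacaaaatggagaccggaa
Mcm6: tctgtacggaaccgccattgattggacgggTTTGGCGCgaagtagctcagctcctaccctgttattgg
Cdc6: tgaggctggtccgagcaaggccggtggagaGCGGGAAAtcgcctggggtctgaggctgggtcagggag
Orc1: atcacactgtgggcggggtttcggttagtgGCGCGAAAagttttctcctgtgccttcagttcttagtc
Dtl: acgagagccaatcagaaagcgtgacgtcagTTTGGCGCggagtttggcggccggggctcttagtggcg
Gins3: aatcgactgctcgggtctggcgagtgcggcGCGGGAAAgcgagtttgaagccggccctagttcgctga
Pola1: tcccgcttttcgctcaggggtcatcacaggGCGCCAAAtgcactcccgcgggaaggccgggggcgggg

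The Mcm5 stretch lies at chr8:75109330-75109397 on the plus strand and holds 2 matches that overlap, 1 on each strand. The Mcm6 stretch is chr1:128359715-128359782 on the minus strand, where the word begins 47 bases before the start. The Cdc6 word begins 138 bases before the start (chr11:98907983-98908050, plus strand), the Orc1 word 27 bases before it (chr4:108579397-108579464, plus strand) and the Dtl word 8 bases before it (chr1:191575515-191575582, minus strand). The Gins3 word begins 41 bases before the start (chr8:95633488-95633555, plus strand) and the Pola1 word 138 bases before it (chrX:93632256-93632323, minus strand). These distances are from the RefSeq start, and the annotation used for gene positions (GENCODE) sets some starts elsewhere. From its starts, the Mcm5, Mcm6, Dtl and Pola1 words begin 209, 88, 8 and 138 bases before and the Cdc6, Orc1 and Gins3 words 212, 4 and 65 bases after. Each stretch is drawn 5′ to 3′ along its gene and its last bases may reach past the start into the first exon. The windows of Rrm2, Ccne1, Mcm2 and Pcna held none of the 4 words.

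The measurement was Smart-SCRB, in which cells sorted into wells of 96-well plates receive a well barcode and every captured RNA a unique molecular identifier (UMI) near its 3′ end. A count is therefore a number of captured molecules, and levels scaled to the UMI total of a cell or sum (CPM) were not divided by transcript length. Of 1536 wells on 16 plates, 1335 had more than 2600 detected genes, and 168 of these cells, on 2 plates of replicate 3 whose condition is given differently in 2 sources, were left out, which left 1167 cells. The 6 sums of UMIs over the cells of a replicate and condition held 84 to 371 cells and 6064936 to 50448320 UMIs. The 288 well barcodes recurred on up to 12 plates, as each plate was its own library, and no well name was shared between the deposited tables.

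The labelled cell type was checked by its markers, and replicate 2 stood apart. The summed CPM of 10 ES cell markers lay between 8217 and 10325 in replicates 1 and 3 and between 2948 and 4537 in replicate 2. Klf4, a factor of the naive state, was at 140.7 (control) and 64.5 CPM (auxin) in replicate 1 and at 72.7 and 27.5 CPM in replicate 3, against 2.75 and 1.17 CPM in replicate 2. Nanog was at 58.6 and 38.9 CPM there and between 495 and 563 CPM elsewhere, whereas Fgf5 and Pax6, markers of later states, reached 22.3 and 19.2 CPM in the auxin cells of replicate 2. The whole list of 10 lineage markers did not set replicate 2 apart, with summed levels of 41.6 and 45.6 CPM there, 50.8 and 26.9 CPM in replicate 1 and 14.8 and 16.3 CPM in replicate 3. The 8 fibroblast markers summed to at most 27.5 CPM. The results below are given per replicate for this reason, and what the state of replicate 2 contributes to them was not tested. Rad21 RNA itself was at 20.9, 31.2 and 42.4 CPM in the control sums of replicates 1, 2 and 3 and at 19.3, 34.0 and 45.2 CPM in the auxin sums, so that the groups overlapped. The degron acts on the protein, so that this RNA does not check the labels.

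The share of UMIs taken by replication genes, in CPM, differed in no common direction between control and auxin cells. In control cells the 46 genes summed to 6721, 7740 and 8553 CPM in replicates 1, 2 and 3, and in auxin cells to 7101, 8222 and 7808 CPM. The auxin sum thus differed from the control sum by 5.65%, 6.23% and -8.71%. The summed CPM of 46 mitosis genes differed by 19.5%, -5.58% and 20.4% in the same replicates, and its part in the member sums was not tested. A CPM is a share of the UMIs, and the spike-in RNA (ERCC) added to every well gives another scale, which was chosen after seeing the data. UMIs of all genes per ERCC UMI were 18.6%, 8.09% and 11.8% higher in auxin cells of replicates 1, 2 and 3. Member UMIs per ERCC UMI were 0.138, 0.236 and 0.369 in control cells and 0.172, 0.271 and 0.377 in auxin cells, which is 25.3%, 14.8% and 2.10% higher. The direction in replicate 3 thus depends on the scale, the control values alone ranged more widely than these differences, and the levels and fold changes below are relative to the UMI total and not to ERCC.

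**Figure D1:**
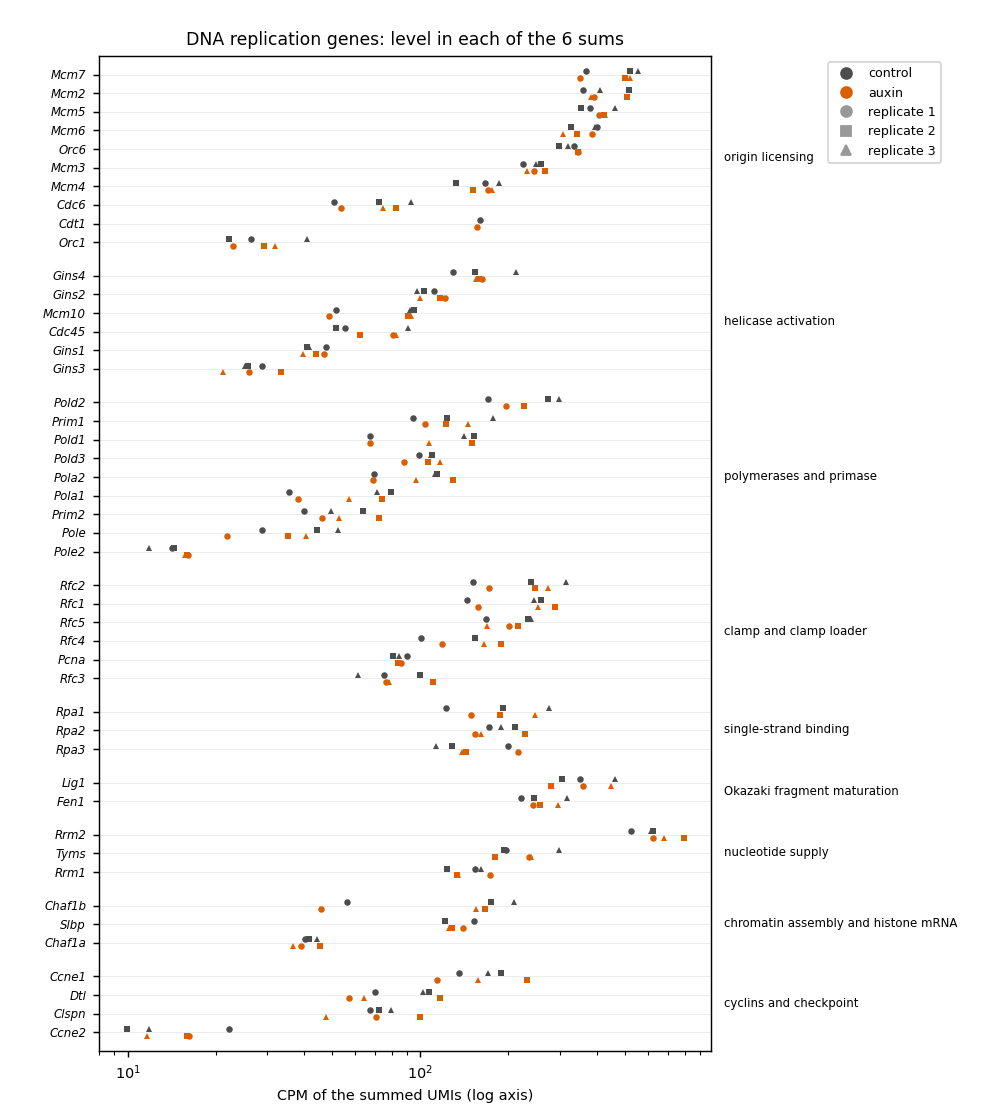
Level of each DNA replication gene (rows, grouped by role) as CPM of the summed UMIs on a log axis, for control (grey) and auxin (orange) cells of replicates 1 (circles), 2 (squares) and 3 (triangles). Levels run from about 10 CPM for Ccne2 to 792 CPM for Rrm2, control and auxin symbols lie close together in most rows, and Cdt1 is drawn in replicate 1 only because it is at 0 in the others.

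None of the 46 genes passed the test between auxin and control cells. By edgeR's quasi-likelihood test on the 6 sums, 45 of the 46 passed the filter on low counts and 0 were called at an adjusted p of 0.05, against 0 of all 17514 genes tested (0%). At an unadjusted p under 0.05 there were 0 members and 33 genes in all (0.188%), and DESeq2 also called 0 members and 0 genes in all. With the replicate as a block, edgeR called 3 of all genes (0.0171%) and again 0 members, and an unadjusted p under 0.05 was reached by 3 members and by 1036 of all genes (5.92%). The 3 members were Rrm2, Pole and Chaf1b, and DESeq2 with the block called 0 members and 57 genes in all. Among the 45 members, 15 had a fitted fold change above 0 and 30 below, while 49.9% of all genes tested were above 0. The split was 20 above and 25 below without replicate 1, and 14 and 32 without replicate 2. It turned round without replicate 3, with 28 above and 18 below. The median over the members was -0.02 on the log2 scale, beside -0.00 over all genes tested. Medians taken per replicate on log2(CPM + 1) were 0.07, 0.11 and -0.12 in replicates 1, 2 and 3, a mean of 0.02 ± 0.12 (SD, n = 3), so that the median differed in sign between replicates and between these scales. Without replicate 2, which stood apart in its ES cell markers, 0 members were called and the fitted median was -0.05.

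In CPM, 9 of the 45 members were higher in auxin cells in all 3 replicates (against 15.6% of all genes tested) and 4 were lower in all 3 (against 13.7%). The 9 were Orc6, Gins2, Pole2, Prim2, Rfc1, Rfc3, Rfc4, Rpa3 and Rrm2, and the 4 were Mcm7, Pold1, Pole and Chaf1b. The levels behind these counts follow by role.

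**Figure D2:**
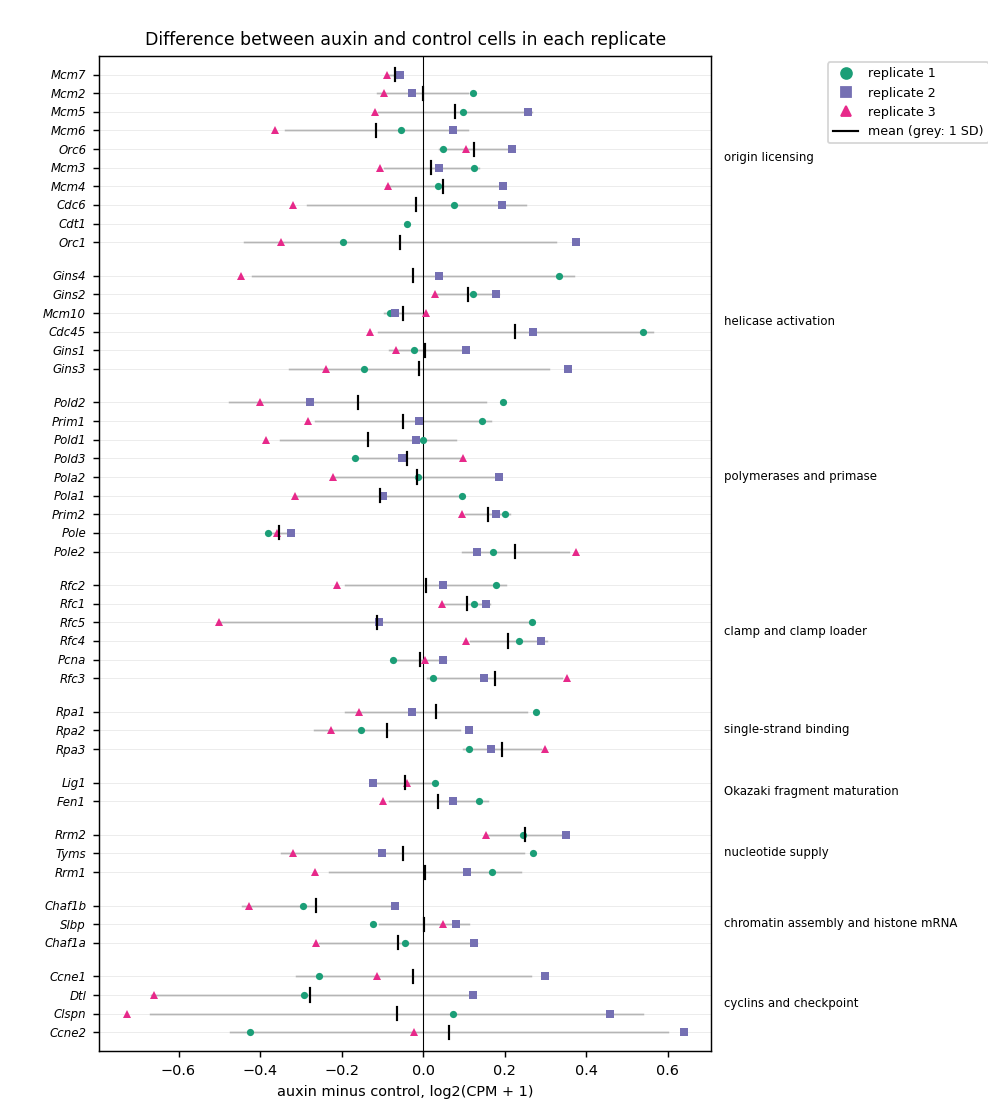
Auxin minus control difference of each DNA replication gene on log2(CPM + 1), 1 symbol per replicate, with the mean (black tick) and 1 SD (grey bar, n = 3). The 3 symbols of Pole sit together, with a mean of -0.35, and those of Rrm2 lie between 0.15 and 0.35, while Clspn, Dtl and Ccne2 have symbols far apart on both sides of 0. Cdt1 has a value in replicate 1 only.

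Of the 10 licensing genes, the ring subunits Mcm7, Mcm2 and Mcm5 had the highest CPM as a mean of the 6 sums, and their order differed between replicates. Mcm7, 1 of its 6 subunits, was at 368 and 352 CPM in control and auxin cells of replicate 1, 519 and 499 CPM in replicate 2 and 553 and 519.9 CPM in replicate 3. It was slightly lower in auxin cells each time, by a mean of 0.07 ± 0.02 on the log2 scale (SD, n = 3), while the levels of the 2 groups overlapped across replicates. Mcm2, Mcm3, Mcm4, Mcm5 and Mcm6 lay between 132 and 516 CPM in the 6 sums, each with at least 1 replicate higher and 1 lower in auxin cells. Orc6, a subunit of the origin recognition complex, was at 333 and 345 CPM in replicate 1, 298 and 346 CPM in replicate 2 and 320.4 and 345 CPM in replicate 3. Its auxin sums all lay above its control sums and differed by 0.12 ± 0.09 (log2, SD, n = 3). Orc1 and Cdc6, which bind origins before the ring is loaded, lay between 22.2 and 93.2 CPM and were higher in auxin cells of replicate 2 and lower in those of replicate 3.

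Cdt1, which brings the Mcm ring to origins, could be measured in replicate 1 only. It was at 160.3 CPM in control cells (2889 UMIs) and 156 CPM in auxin cells (3000 UMIs) of replicate 1, and at 0 UMIs in all 4 sums of replicates 2 and 3, where 3 UMIs would have been 0.0595 to 0.495 CPM. Cdt1 (chr8:122568015-122573554, plus strand, mm10) lies inside the span annotated for Gm20388 on the same strand (chr8:119910841-124345722). Gm20388 showed the opposite pattern, with 0 UMIs in both sums of replicate 1 and 362 to 396 CPM in replicates 2 and 3. Of 16 genes on that strand inside the span that exceeded 20 CPM in replicate 1, 16 were at 0 in every sum of replicates 2 and 3, and of 14 genes on the other strand, 0 were. Over all genes, 110 had more than 20 CPM in replicate 1 and 0 UMIs in replicates 2 and 3, among them Sox2, and Cdt1 was the 1 replication gene among them. Its zeros are therefore not read as absence of Cdt1 RNA, and Cdt1 failed the filter on low counts for this reason.

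Genes that activate the helicase varied between replicates. Gins4, a GINS subunit, was at 129 and 163 CPM in control and auxin cells of replicate 1, 154 and 158 CPM in replicate 2 and 212 and 155 CPM in replicate 3. Cdc45, the partner of GINS and the Mcm ring, was at 55.1 and 80.6, 51.4 and 62.2, and 90.9 and 82.9 CPM. Cdc45 was higher in auxin cells of replicates 1 and 2 and lower in replicate 3, a mean of 0.23 ± 0.34 (log2, SD, n = 3). Gins2 was higher each time, by 0.11 ± 0.08, and Gins1, Gins3 and Mcm10 lay between 21.2 and 95.1 CPM with differences of both signs.

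Among polymerase and primase genes, Pole was lower in auxin cells by a similar amount in each replicate. Pole encodes the catalytic subunit of polymerase epsilon, which copies the leading strand. It was at 28.7 and 21.8 CPM in control and auxin cells of replicate 1, 44.5 and 35.4 CPM in replicate 2 and 52.3 and 40.5 CPM in replicate 3. The difference was -0.35 ± 0.03 (log2, SD, n = 3), lower in 3 of 3 replicates, while the control sums alone ranged from 28.7 to 52.3 CPM. Its fitted log2 fold change was -0.37 (SE 0.25, edgeR adjusted p = 1.00) and, with the replicate block, -0.38 (SE 0.14, unadjusted p = 0.0223, adjusted p = 0.775). Pole2, a smaller subunit of the same enzyme, was at 14.2, 14.5 and 11.9 CPM in control cells and at 16.1, 15.9 and 15.7 CPM in auxin cells. It thus differed in the other direction, by 0.23 ± 0.13. Pold2, a subunit of polymerase delta, was at 170.5 and 196, 273 and 225, and 298 and 226 CPM, higher in auxin cells of replicate 1 and lower in the others. The other 6 genes of this role lay between 35.6 and 177 CPM, and of these Prim2 was higher and Pold1 lower in 3 of 3 replicates, Pold1 with 67.3 against 67.2 CPM in replicate 1.

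The clamp and its loader gave values of both signs. Pcna was at 80.8 to 90.1 CPM in all 6 sums, with a mean difference of -0.01 ± 0.06 (log2, SD, n = 3). Its level is uncertain, because the processed pseudogene Pcna-ps2 took 2400 UMIs beside 12536 for Pcna and the counting could split reads between them. Rfc2, a subunit of the clamp loader RFC, was at 151 and 172, 239 and 247, and 316 and 273 CPM. Rfc4, another subunit, was at 100.5 and 119 CPM in replicate 1, 154 and 188 CPM in replicate 2 and 154 and 165 CPM in replicate 3, higher each time by 0.21 ± 0.09. Rfc1 and Rfc3 were also higher each time, and Rfc5 ranged from 167 to 239 CPM with differences of both signs.

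Of the 3 genes for the single-strand binding protein RPA, Rpa3 was higher in auxin cells each time. It was at 199 and 215, 128 and 143, and 113 and 139 CPM, a difference of 0.19 ± 0.10 (log2, SD, n = 3), and its levels in the 2 groups overlapped across replicates. Rpa1, the subunit with most of the DNA contacts, was at 123 and 149, 191 and 188, and 275 and 246 CPM. Lig1, which joins Okazaki fragments, was at 352 and 359, 305 and 280.3, and 461 and 449 CPM, and Fen1, which trims their flaps, lay between 220.0 and 316 CPM.

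Rrm2 had the highest level of all members and was higher in auxin cells in 3 of 3 replicates. It encodes the small subunit of ribonucleotide reductase, whose level limits the supply of deoxyribonucleotides in S phase. Rrm2 was at 524 and 621 CPM in control and auxin cells of replicate 1, 621 and 792 CPM in replicate 2 and 611 and 680.0 CPM in replicate 3. The auxin sums of replicates 2 and 3 lay above all control sums, and that of replicate 1 just below the highest control sum. The difference was 0.25 ± 0.10 (log2, SD, n = 3), and the fitted fold change was 0.24 (SE 0.17, edgeR adjusted p = 1.00) without the block and 0.24 (SE 0.07, unadjusted p = 0.0109, adjusted p = 0.739) with it. Rrm1, the large subunit of the same enzyme, lay between 124 and 173 CPM with a mean difference of 0.00 ± 0.23, and Tyms, which makes thymidylate, between 180.4 and 298 CPM with -0.05 ± 0.30.

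Chaf1b, a subunit of the chromatin assembly factor CAF-1 that places histones on new DNA, was lower in auxin cells each time. It was at 56.3 and 45.7 CPM in replicate 1, 174 and 166 CPM in replicate 2 and 209 and 155 CPM in replicate 3, a difference of -0.26 ± 0.18 (log2, SD, n = 3). With the block its fitted fold change was -0.28 (SE 0.10, unadjusted p = 0.0276, edgeR adjusted p = 0.811). Its level in replicate 1 was below that of every other sum by more than the difference between conditions. Chaf1a, the large subunit, lay between 36.8 and 45.4 CPM and Slbp, which binds histone mRNA, between 121 and 153 CPM, both without a common direction.

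The differences of the cyclins E and the checkpoint genes went in opposite directions in different replicates, and those of Clspn and Ccne2 had the widest spread of all members (SD 0.61 and 0.54 on the log2 scale, n = 3). Ccne1, a cyclin of the passage into S phase, was at 136 and 114 CPM in replicate 1, 188 and 232 CPM in replicate 2 and 171 and 158 CPM in replicate 3. Dtl, which marks Cdt1 for degradation in S phase, was at 70.1 and 57.1, 107 and 117, and 102 and 64.0 CPM, a mean of -0.28 ± 0.39 (log2, SD, n = 3). Clspn, the checkpoint mediator Claspin, was at 67.1 and 70.7, 72.0 and 99.3, and 79.6 and 47.7 CPM. Ccne2 lay between 9.93 and 22.2 CPM. For none of these 4 genes was the mean difference larger than its SD over the 3 replicates.

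Replicate 2 had 4 plates per condition, which allowed the members to be followed plate by plate. The auxin plates of this replicate lay wholly above the control plates for 10 of 45 members, against 7.47% of all genes tested, and wholly below them for 2 members, against 5.78% of all. The summed CPM of the members was 7615 to 7886 on the 4 control plates and 8078 to 8367 on the 4 auxin plates, which did not overlap. Between the same conditions of replicate 2 the summed CPM of the 10 ES cell markers was 4537 and 2948, that of the 8 fibroblast markers 14.4 and 27.5, and their part in the member values was not tested. Rrm2 was at 596 to 648 CPM on control plates and 722 to 834 CPM on auxin plates, and Ccne1 at 183 to 196 and 219 to 247 CPM. Mcm5 was at 337 to 362 and 386 to 454 CPM and Clspn at 66.5 to 82.7 and 84.9 to 112 CPM. Mcm4, Orc1, Orc6, Rfc3, Rpa2 and Ccne2 were the other members that lay higher, and Pole and Pold2 those that lay lower, Pole at 42.7 to 47.3 CPM on control plates and 30.8 to 40.6 CPM on auxin plates. With TMM effective library sizes 7 members were higher (against 6.35% of all genes) and 2 lower (against 6.46%), and with each cell given equal weight 6 were higher (against 6.42%) and 1 lower (against 4.37%). Of the 12 members, Orc6, Rfc3, Rrm2 and Pole had the same direction in all 3 replicates, and the others did not. These plates come from 1 run of the procedure, the auxin cells of this replicate had a median of 187088 UMIs against 143842 in control cells, and no p is given.

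**Figure D3:**
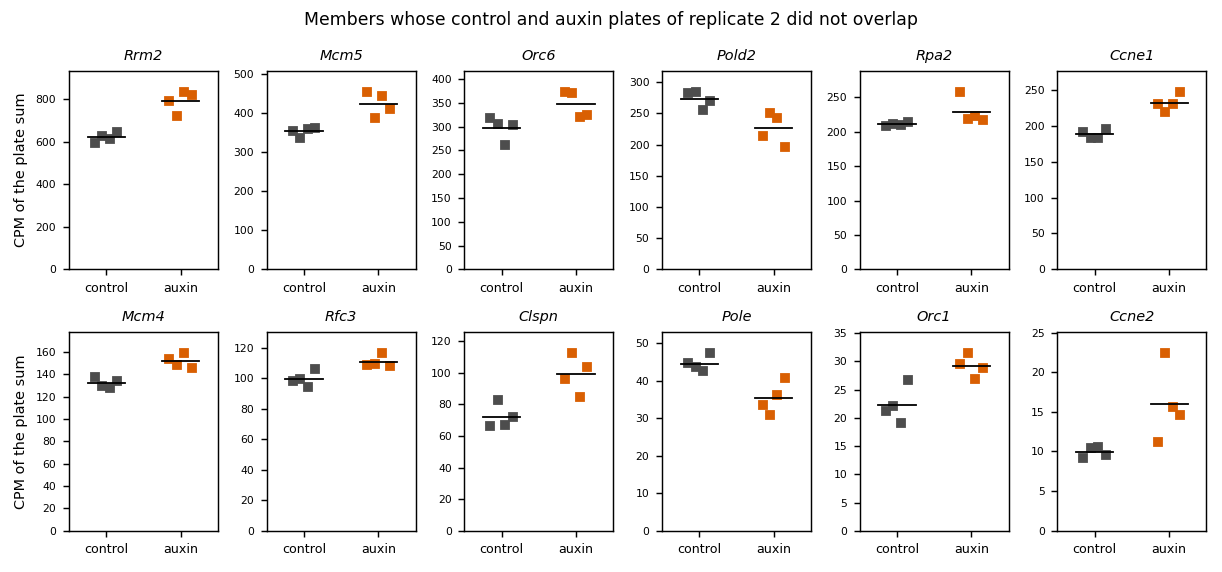
CPM of the plate sum (linear axes from 0) for the 12 DNA replication genes whose 4 control plates and 4 auxin plates of replicate 2 did not overlap, with 1 square per plate and the mean as a line. The auxin plates are higher for 10 genes, for example 722 to 834 against 596 to 648 CPM for Rrm2, and lower for Pole and Pold2.

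Other genes of the replication pathway were not called either. Of 64 further genes of replication, its nucleotide supply and its regulation, 64 were tested and 0 were called, with or without the block, and 12 were higher (against 15.6% of all genes) and 5 lower (against 13.7%) in auxin cells in all 3 replicates. On the plates of replicate 2, 11 lay wholly higher (against 7.47% of all genes) and 2 wholly lower (against 5.78%). The higher count was 7 of 64 with TMM effective library sizes (against 6.35%) and 3 of 64 with each cell given equal weight (against 6.42%), so that it depends on the scaling. The 5 with the lowest p under the block were Tk1, Tfdp1, Hells, Asf1b and Tipin. Tk1, thymidine kinase, was at 78.4 and 101 CPM in control and auxin cells of replicate 1, 56.5 and 68.2 CPM in replicate 2 and 126 and 163 CPM in replicate 3. It was higher each time, by 0.33 ± 0.06 (log2, SD, n = 3), with an adjusted p of 0.739 from edgeR with the block and an unadjusted p of 0.0136. Tfdp1, the partner of the E2F factors, differed by 0.30 ± 0.18, the histone chaperone Asf1b by 0.23 ± 0.08, the fork protection gene Tipin by 0.17 ± 0.13 and the chromatin remodeller Hells by -0.18 ± 0.17.

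Across cells, the mean correlation between replication genes was higher than that over all gene pairs. Within each replicate and condition, Spearman's correlation of CPM per cell was taken for each of the 990 pairs (1035 in replicate 1, where Cdt1 had counts), and the mean is given as a description. In control cells it was 0.157, 0.129 and 0.0783 in replicates 1, 2 and 3, against 0.0139, 0.0413 and 0.00707 over all pairs of genes with at least 1 count per cell on average. The mean over replicates was 0.121 ± 0.040 (SD, n = 3), and 0.118 without replicate 2. The value depends on the scaling, with 0.0781 on counts thinned to 20000 UMIs per cell and 0.293 on raw counts, which carry the UMI count of each cell. Of 990 pairs with a value in all 6 groups of cells, 468 were above 0 in each of them and 0 were below 0 in each. No such count is given over all gene pairs, whose mean was also above 0 in each group. Members with more UMIs per cell had the higher values (Spearman 0.491 between mean count per cell and mean correlation, over 45 members that share their cells). The comparison with all gene pairs was not matched for level. A mean of at least 3 counts per cell was reached by 44 of 46 members and by 5957 of the 9517 genes with at least 1. Values over all gene pairs are given on CPM only.

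The members with the highest mean correlation with the others in control cells were Rrm2 (0.228 ± 0.054), Mcm6 (0.200 ± 0.048), Mcm7 (0.188 ± 0.062), Mcm5 (0.177 ± 0.066) and Rpa2 (0.174 ± 0.030). The lowest were Pola1 (0.052 ± 0.068), Prim2 (0.056 ± 0.020), Pole (0.057 ± 0.031), Rfc1 (0.057 ± 0.029) and Rpa3 (0.057 ± 0.101), all as SD over 3 replicates. Cdt1, with a value in replicate 1 only, had 0.245 there, below Rrm2 (0.274), Mcm6 (0.255) and Mcm7 (0.249) in the same cells. By pair, subunits of the Mcm ring stood at the top. Mcm2 and Mcm6 had 0.391, 0.384 and 0.506 in control cells of the 3 replicates, Mcm5 and Mcm6 0.484, 0.376 and 0.364, and Mcm3 and Mcm6 0.478, 0.296 and 0.411. Rrm2 followed with Mcm6 (mean 0.373) and Slbp (mean 0.355). By role, the licensing genes had the highest mean correlation among themselves, 0.234 in control cells, and the 3 genes of nucleotide supply had 0.187, while the 9 polymerase and primase genes had 0.0637. For 15 members with an E2F-type word the median of the mean correlations was 0.109 in control and 0.117 in auxin cells, and for 22 members with a window and no word it was 0.128 and 0.116, Cdt1 left out. The order of the medians thus differed between conditions.

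Between control and auxin cells this mean differed in no common direction. In auxin cells the mean over pairs was 0.128, 0.148 and 0.0766, a change of -0.0283, 0.0196 and -0.00165 in replicates 1, 2 and 3. The mean change was -0.00345 ± 0.0240 (SD, n = 3), and that over all gene pairs was 0.00877 ± 0.00922. In replicates 1, 2 and 3, 38.3%, 61.5% and 49.5% of the pairs were higher in auxin cells, and 106 pairs were higher and 107 lower in all 3. These counts are not given over all gene pairs. Without replicate 2 the mean change was -0.0150, and on raw counts 0.0291. Rrm2 and Mcm6 had mean correlations of 0.228 and 0.184 with the other members in auxin cells. The study's question concerns genes in cis, and members on 1 chromosome were therefore set beside members on different ones. For the 75 pairs on 1 chromosome (80 with Cdt1), the mean exceeded that of the other pairs by 0.00381 ± 0.0136 in control cells, and this excess changed by -0.00685, 0.0127 and 0.00719 in auxin cells. Both values are within the spread between replicates.

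**Figure D4:**
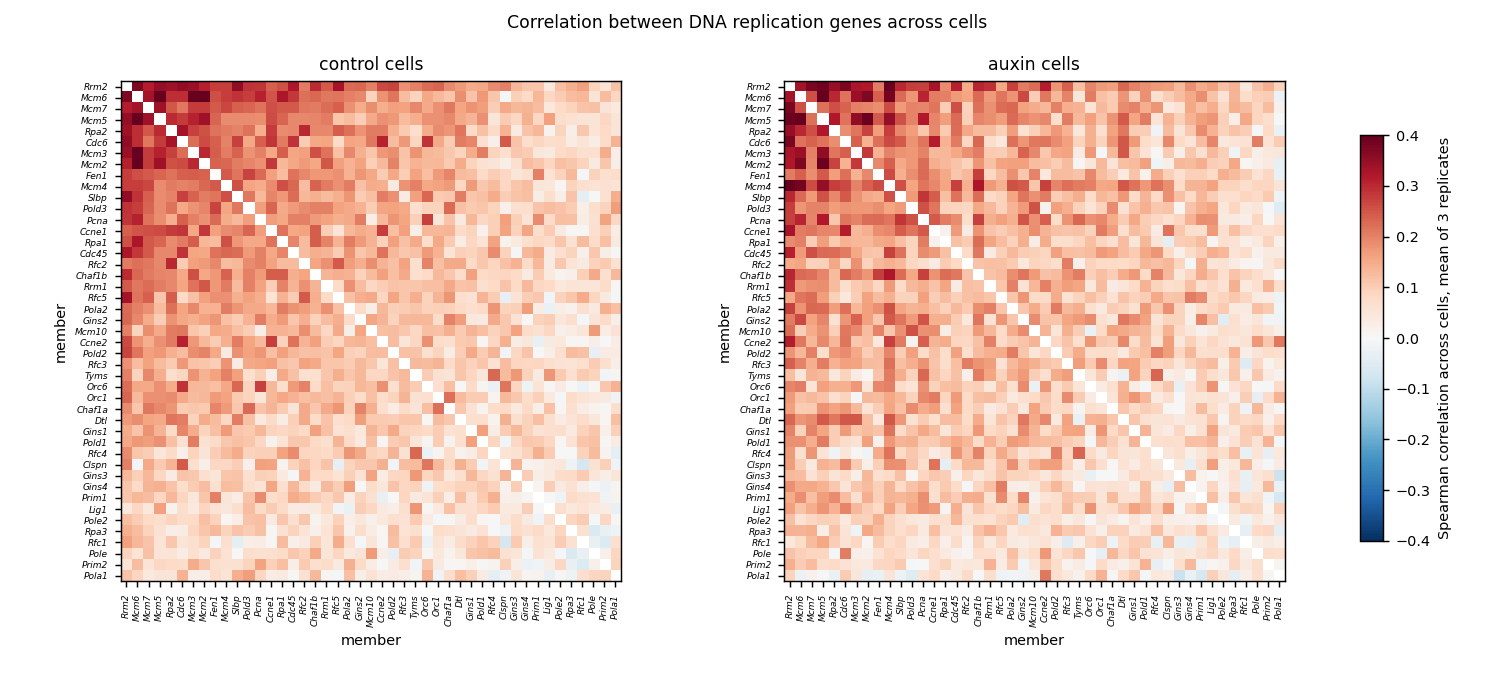
Spearman correlation of CPM across cells between each pair of 45 DNA replication genes (rows and columns, Cdt1 left out), as the mean of 3 replicates, in control cells (left) and auxin cells (right), with the colour scale from -0.4 to 0.4. Genes are in both maps ordered by their mean correlation in control cells, so that Rrm2 and the Mcm genes form a red corner at the upper left, and Pole, Prim2 and Pola1 a pale one at the lower right.

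The relation of replication genes to mitosis genes across cells differed between replicates. The mean correlation over pairs of a member and 1 of 46 mitosis genes in control cells was 0.0734, 0.0626 and -0.0461 in replicates 1, 2 and 3, and the mitosis genes had 0.288, 0.173 and 0.192 among themselves. In auxin cells it was 0.0403, 0.0865 and -0.0215. The values of replicates 1 and 2 lay above those over all gene pairs (0.0139 and 0.0413 in control cells, 0.0127 and 0.0518 in auxin cells), and those of replicate 3 below them (0.00707 and 0.0240). For the summed CPM of the 2 lists, the correlation across control cells was 0.0812, -0.0959 and -0.469, and across auxin cells -0.127, -0.0958 and -0.438. With Ccnb1, the cyclin of mitotic entry, the member sum had 0.238, 0.134 and -0.318 in control cells and -0.0136, 0.118 and -0.292 in auxin cells. With Cdc20, the activator of the anaphase-promoting complex, it had 0.0198, 0.0901 and -0.395 in control cells and -0.164, 0.195 and -0.290 in auxin cells. Replicate 3 thus had the most negative values, in control and in auxin cells, and without replicate 2 the mean over pairs in control cells was 0.0136. On raw counts the mean over pairs in control cells of all 3 replicates was 0.227, beside 0.0300 on CPM. The member sum also moved with the UMI count of a cell in replicates 1 and 2 (0.329 and 0.453 in control cells) and not in replicate 3 (-0.0400), and the part of the UMI count in these relations was not tested. The members with the lowest mean correlation with mitosis genes in control cells were Orc6 (-0.062 ± 0.078), Ccne1 (-0.039 ± 0.088), Mcm6 (-0.031 ± 0.117), Slbp (-0.028 ± 0.092) and Pola1 (-0.026 ± 0.107), and none of the 5 lay beyond its SD. In auxin cells the mean over all pairs with mitosis genes changed by -0.0331, 0.0239 and 0.0246, a mean of 0.00516 ± 0.0331 (SD, n = 3).

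Levels of single members nevertheless differed along the mitotic range. In each group, cells were ranked by the summed CPM of the mitosis genes and cut into 4 equal parts of 21 to 93 cells, which are ranges of 1 score and not cell types (374 of 1167 cells lay within 10% of the lower or the upper cut). Of 45 members, 34 had a higher mean CPM in the lowest part than in the highest (against 56.9% of 9146 genes with at least 1 count per cell), 14 were higher in the lowest part in all 6 groups (against 4.89%), and 1, Pold1, was higher in the highest part in all 6 (against 4.7%). The summed CPM of the members was higher in the lowest part than in the highest in 5 of 6 groups, for example 9684 and 7325 CPM in control cells of replicate 3, and lower in control cells of replicate 1, with 5834 and 6044 CPM. Ccne2 was at 20.7 CPM in the lowest part and 6.76 CPM in the highest (3.07-fold, mean of 6 groups), and Cdc6 at 95.05 and 45.7 CPM (2.08-fold). Slbp (1.76-fold) and Ccne1 (1.72-fold) came next. Ccne1, Ccne2 and Cdc6 act around the passage from G1 to S. The Mcm genes were less uneven, with 1.48-fold for Mcm4, 1.41-fold for Mcm6 and 1.11-fold for Mcm2 and Mcm7. Rrm2 was at 678 and 608 CPM, higher in the lowest part in 4 of 6 groups, and Pold1 at 99.0 and 121 CPM.

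**Figure D5:**
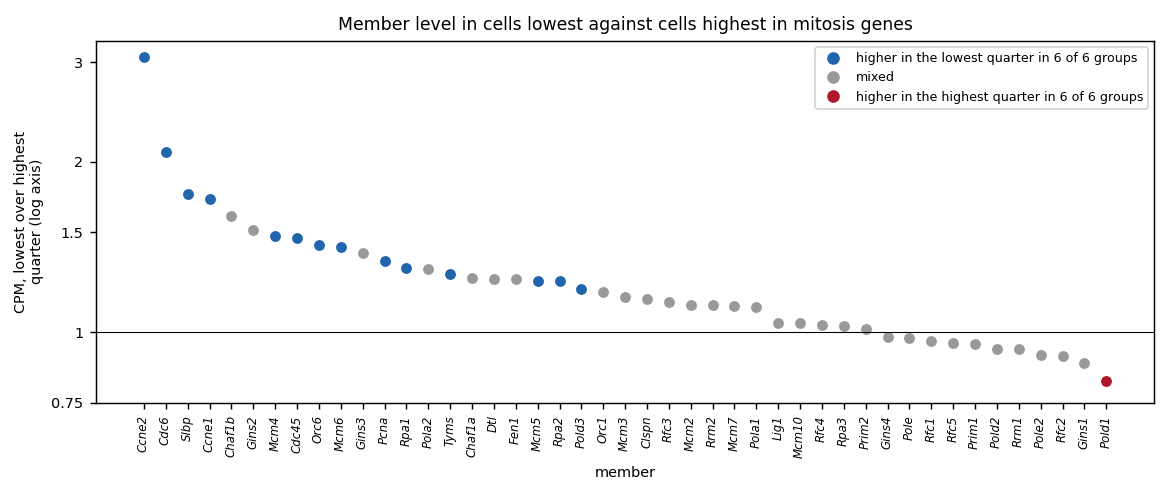
CPM in the 25% of cells lowest in mitosis genes over that in the 25% highest (log axis, mean of 6 groups of cells) for 45 DNA replication genes, in falling order. Ccne2, Cdc6, Slbp and Ccne1 lead with 3.07 to 1.72-fold, and Pold1 is lowest, with 0.821-fold.

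The spread of single members between cells was taken from counts thinned to 20000 UMIs per cell, as the variance above counting error divided by the squared mean (excess CV2). Ccne2 had the highest value, 5.80 (mean of 6 groups, range 3.89 to 10.1), at a mean of 0.309 thinned counts, followed by Pole2 (4.38) and Pole (2.21). Rpa3 (0.2501), Mcm2 (0.252) and Mcm7 (0.270) had the lowest. The median over all genes with at least 1 count per cell was 1.08 to 1.95 in the 6 groups, and the value depends on the level of a gene, so that no order between members of different levels is read from it. Cdc6, at a mean of 1.35 thinned counts, had 1.75, and Pcna, at 1.64, had 0.348.

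Genes outside the 46 were ranked by how closely they followed the summed CPM of the members across cells. Over 9277 genes ranked by their mean correlation with that sum in the 6 groups, 20 of the first 50 were members, each set against the sum of the other members, and 11 were of the list of other replication genes. Rrm2 (0.559) and Mcm6 (0.535) came first, and Ung, the uracil DNA glycosylase, followed with 0.514. Uhrf1, the maintenance factor of DNA methylation, had 0.437, Tipin 0.421, the chromatin gene Ptma 0.416, Cnbp 0.375, the licensing inhibitor Gmnn 0.3599 and the histone chaperone subunit Rbbp4 0.357. Marcksl1, Sumo2, Pclaf, Tk1, Shmt1, Dut and Paics had 0.324 to 0.340. The lowest value belonged to Malat1, a nuclear noncoding RNA, with -0.473 (-0.369 to -0.612 over the 6 groups), followed by Gm42418 (-0.314), the mitochondrial ribosomal RNA mt-Rnr2 (-0.237), the kinetochore motor Cenpe (-0.217) and mt-Rnr1 (-0.217). The median over all genes was 0.0435, and these 6 values of a gene share its cells and its depth.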

How the data were processed

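Smart-SCRB counts of 3 replicates were used, each with control and auxin cells on separate plates. The values the authors deposited were raw UMI counts, in whole numbers, from reads mapped to mm10. The aligner, the counting program and the gene annotation are not given in the sources used here. The authors also deposited for each plate a saturation fraction (0.283 to 0.579 here) and for each well the percent of counts from ERCC spike-ins. A cell entered if over 2600 genes were detected in it. Wells were filled by cell sorting and no doublet caller was run. Conditions came from the deposited plate annotation. Plates named RAD21_positive in replicate 1 were taken as control and RAD21_negative as auxin, and 2 plates of replicate 3 on which the annotation and the source values of the study disagree were left out. The 92 ERCC and 11 transgene rows were left out of totals. Positions came from GENCODE M21, which held 99.7% of the gene identifiers, and promoters from RefSeq.

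UMIs of all cells of a condition were added up within each replicate, and the 6 sums were compared with edgeR 4.0.16 (filterByExpr, TMM, quasi-likelihood test, Benjamini-Hochberg over all genes tested, threshold 0.05) in R 4.3.3, with DESeq2 1.42.0 as an alternative. The replicate numbers mark whole repeats of the procedure, and sums of the same number deviated together from their group means (correlation across genes 0.872, 0.832 and 0.682), so that the numbers pair the samples and a blocked fit was also run. Fold changes in CPM used log2(CPM + 1). Correlations and other values used Python 3.11.15, numpy 2.4.6 and scipy 1.17.1, and cells were never treated as replicates. The tests and correlations were tested on simulated data. Named genes were the member of each role with the highest CPM and the one with the largest mean log2 difference, the 5 members at each end of the correlations, the 5 best pairs, the 15 best and 5 most negative other genes, and any gene past the threshold. A gene that this rule named is not reported here. Other members are named where a count of members is spelled out. Mitosis genes and the 64 other replication genes were lists of textbook genes. The members and lists were chosen with earlier results of these data known. Deposited fold changes or p-values were not used. Alternatives changed the tool, the block, the filters, the scaling, the measure of correlation, the disputed plates and the replicates.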

Additional observations from a re-analysis of the deposited data

Results flagged for a closer look

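Among 28 groups of 4 plates of replicate 2 (the 12 members whose plates did not overlap and the summed CPM of members and of mitosis genes, in control and in auxin cells), 2 had 1 plate far from the other 3 by Dixon's criterion, which chance gives in about 1 of 20 groups. For Rpa2 in auxin cells the highest plate was at 257.5 CPM and the others were at 217 to 222 CPM. For Rfc3 in auxin cells the highest plate was at 116.4 CPM and the others at 108 to 109 CPM. The other 3 auxin plates lay above the control plates in both cases, which reached 214.5 CPM for Rpa2 and 106 CPM for Rfc3.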

How the results depend on the processing

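The count of members called stayed at 0 and that of other replication genes at 0 under each alternative run, including DESeq2, no filter on low counts, both placements of the disputed plates, each replicate left out and the replicate block. With the replicate block the median log2 fold change of the members was -0.02, and the block changed no call of a member. Leaving out a replicate gave medians between -0.05 and 0.05 without the block and between -0.05 and 0.05 with it, above 0 only without replicate 3. For single replicates left out, the mean correlation between members in control cells was 0.104 to 0.143 and its change in auxin cells -0.0150 to 0.00898, that with mitosis genes was 0.00824 to 0.0680 and its change -0.00456 to 0.0243, and the difference between pairs on 1 and on different chromosomes was -0.00335 to 0.0102 and its change 0.000173 to 0.00995.

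On raw counts, which carry the UMI count of each cell, the mean correlation between members was 0.293 in control cells and rose by 0.0291 in auxin cells, and that with mitosis genes was 0.227 and rose by 0.0545. In counts thinned to 20000 UMIs the mean correlation between members was 0.0781. With each cell given equal weight, 7 members did not overlap between the plates of replicate 2, beside 10.8% of all genes. The log2 fold change of Rad21 changed sign where the disputed plates were placed by the annotation (-0.0398, and -0.0410 with the replicate block), without replicate 3 (-0.0149, and -0.0239 with the block) and without replicate 2 with the block (-0.0183), and leaving out a replicate gave -0.0149 to 0.114 without the block and -0.0239 to 0.111 with it. Over all genes 0 were called by edgeR, 3 by edgeR with the replicate block and 57 by DESeq2 with it. The cause was not tested. Leaving Cdt1 out of the correlations, and the disputed plates with the block, were chosen after seeing the data and moved no value by more than its spread. The requirement of at least 1 count per cell was met by all 46 members, so that dropping it changed nothing. Ccne2, Pole2, Orc1 and Gins3 had under 4 UMIs per cell on average, and what depth contributes to the correlation of a single gene was not tested. Scaling to ERCC UMIs, also chosen after seeing the data, turned the difference of the member sum in replicate 3 from -8.71% to 2.10%.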

Other observations

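On the 2 plates of replicate 3 whose condition is disputed, the 46 genes summed to 8056 and 7761 CPM, and the mitosis genes to 9681 and 10790 CPM. The plate of this replicate with a settled control label had 8553 CPM for the members, and the settled auxin plate 7808 CPM.

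By role, the summed CPM of nucleotide supply genes differed between auxin and control cells by 17.9%, 17.8% and -1.65% in replicates 1, 2 and 3, and that of the cyclins and checkpoint genes by -12.7%, 22.9% and -22.8%.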
